A study of Homo sapiens with 4 samples.

Results

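The genes described are those that encode the cytosolic translation initiation and elongation factors, together with a few genes that carry a factor name for a related reason. They were chosen by name as protein-coding genes on chromosomes 1 to 22 or X whose symbols start with EIF1 to EIF6, EEF1 or EEF2. The 4 EIF2AK genes, which encode eIF2 kinases, 1 gene on another chromosome and 52 genes of other biotypes, mostly processed pseudogenes, were left out. This left 63 of the 28391 genes in the table, of which 16057 were protein coding. RNA was sequenced from HCT116, an established human colorectal carcinoma cell line, in 2 libraries with a short hairpin against ALKBH5 (shALKBH5, genotype given as ALKBH5 knockdown) and 2 with a control hairpin (shNC, genotype given as WT). ALKBH5 removes N6-methyladenosine from RNA. The labels name 1 hairpin group against ALKBH5 and no rescue, and they leave unsaid if replicate libraries are separate cultures. The p-values therefore measure the spread between these libraries only, which may be technical.

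Initiation begins when eIF2 carries the initiator tRNA to the small ribosomal subunit, with eIF1, eIF1A, eIF3 and eIF5 bound to it. The eIF4 factors recognise the mRNA cap, unwind the leader and bring in that complex, and eIF5B then joins the large subunit. During elongation, eEF1A delivers aminoacyl-tRNA, eEF2 moves the ribosome along and eIF5A eases peptide bonds that form slowly. Many mRNAs of the translation machinery start with a C and a run of pyrimidines, called a terminal oligopyrimidine (TOP) tract, through which mTORC1 signalling controls their translation.

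The hairpin's target checked the labels. ALKBH5 (ENSG00000091542) had 312.1 and 270.2 normalised read counts in the shALKBH5 libraries, against 1905 and 1941 in the shNC libraries. The recovered reads numbered 16884473 and 17047446 in shALKBH5 and 17493141 and 16398604 in shNC. Of 7 colorectal epithelial markers, KRT8, KRT18, KRT19, EPCAM, CDH1 and CDX2 were detected in every library, while VIL1 stayed at or under 3.04 normalised counts. Of 8 genes that mark other cell types, 6 were read, and they summed to 907.9 and 883.7 in shALKBH5 and 948.3 and 973.7 in shNC, with 0 counts in 1 library each for COL3A1 and ALB. Nearly all of that sum was COL1A1, a collagen chain, at 870.4 and 837.7 in shALKBH5 and 902.6 and 910.3 in shNC. The part of other cells in the results was not tested. In bulk RNA, a change in how many cells express a gene and a change in RNA per cell cannot be told apart.

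Most factor genes differed little between the groups, and those that passed the test were small rises with 1 fall. Of the 63 genes, 6 were higher and 1 was lower in shALKBH5, and 56 did not pass. The genes that rose were EIF6, EIF2D, EIF5, EIF4B, EEF1A2 and EIF2S3, by 1.20-fold to 1.28-fold, and EIF5A2 was lower by 1.43-fold. The test was limma-trend on log2(value + 1) across 25887 genes, Benjamini-Hochberg adjusted, at 0.05, and all 63 genes were tested. Over all genes, 3.86% passed, and 1.98% were higher. Of 3858 protein-coding genes that averaged 1000 normalised counts or more, a level chosen after the data were seen, 13.7% passed in either direction and 7.83% were higher. Of the 39 factor genes at that level, 6 were higher and 0 were lower.

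Most factor genes had a log2 fold change above 0. The median log2 fold change of the 63 genes was 0.08, with 45 above 0, against a median of -0.00 and 12709 of 25887 above 0 for all genes tested. Of the protein-coding genes that averaged 1000 or more, 57.4% were above 0, with a median of 0.03. Of the 39 factor genes at that level 32 were above 0, with a median of 0.09. Both shALKBH5 libraries lay above both shNC libraries for 33 of the 63 genes and below them for 10. That pattern of separation upward held for 25.0% of all genes and 41.0% of the protein-coding genes that averaged 1000 or more. It held for 25 of the 39 factor genes at that level. Separation downward held for 6624 of the 25887 genes tested. At the level of 1000 or more it held for 1131 of 3858 protein-coding genes and for 4 of the 39 factor genes. Scaling the libraries to equal totals left 40 of the 63 above 0 with a median of 0.05, and TMM factors left 46 with a median of 0.08. Over all 25887 genes tested, equal totals left 11630 above 0 with a median of -0.0275. TMM factors left 12807 of them above 0 with a median of -0.002. Together the 63 genes took 2.66% and 2.67% of the normalised counts in shALKBH5 and 2.52% and 2.50% in shNC. EEF1A1 and EEF2 took 1.42% and 1.44% in shALKBH5 and 1.35% and 1.34% in shNC.

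The calls depended on the tool and on single libraries. On whole reads recovered from the values, edgeR's quasi-likelihood test passed 22 of the 62 factor genes it tested, 19 higher and 3 lower, where it passed 20.8% of all genes. Of the protein-coding genes that averaged 1000 or more it passed 36.4%, and of the 39 factor genes at that level 17, with 0 of them lower. The authors' deposited table has 15 of the 63 past an adjusted p of 0.05, 14 higher and 1 lower, where 11.9% of the genes with an adjusted p other than 1 pass. Of the protein-coding genes that averaged 1000 or more it has 22.5% past the threshold, and 14 of the 39 factor genes. Each of the 7 genes called by limma-trend was also called in both. Without shNC library 1 or without shNC library 2, limma-trend lost its calls, among factor genes and over all genes, while edgeR still made calls. In those 2 limma-trend fits 22 or 20 factor genes had an unadjusted p under 0.05, as did 35.7% or 37.5% of the protein-coding genes that averaged 1000 or more. Without shALKBH5 library 1 or 2 both tools still made calls, but limma-trend ignored each gene's own spread in those fits. Calls with a library left out also depended on the filter on low values. It was applied again to the libraries kept, a choice made after the data were seen. With the tested genes held at the original 25887, limma-trend lost its factor gene calls whichever library was left out. On those genes edgeR lost its calls without shNC library 1 or 2, and not without shALKBH5 library 1 or 2. With all libraries, edgeR on those genes passed 12 factor genes, where 887 of all genes were higher and 804 lower. The 7 genes kept their direction in each of the 28 other settings run.

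**Figure D1:**
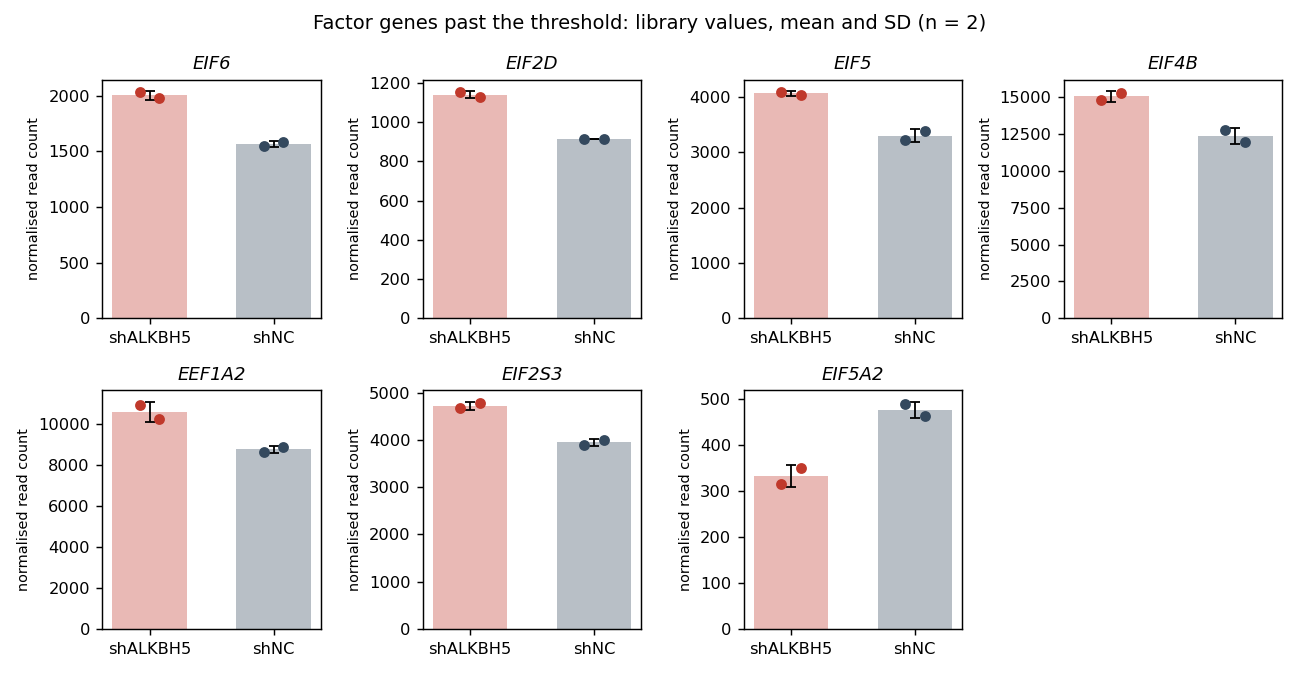
Normalised read counts of the 7 factor genes past the threshold, with 1 panel per gene; points are libraries, bars are means and error bars are SD (n = 2 per group), on a linear axis from 0. In the first 6 panels both shALKBH5 points lie above both shNC points, and in the EIF5A2 panel 315.1 and 349.3 in shALKBH5 lie below 487.9 and 462.8 in shNC.

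Short windows around the annotated starts of 6 of the 7 genes that passed, without EEF1A2, and of EEF1A1 and EEF2 are shown because the start bases decide whether a gene counts as having a TOP-type start. The windows hold 10 bases before the RefSeq start and 15 from it, on GRCh38.p14, and capitals mark the run of pyrimidines that begins with a C at the start itself.
EIF4B: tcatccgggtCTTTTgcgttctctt
EIF2S3: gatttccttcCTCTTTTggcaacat
EIF2D: ccagccgggcCCTTTTCgcggccgg
EEF2: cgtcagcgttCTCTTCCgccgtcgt
EEF1A1: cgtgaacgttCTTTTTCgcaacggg
EIF5: ggcgttgttcagtcagagcgagaac
EIF6: tggtaagctggtgtgaggggaacct
EIF5A2: cccgtctcttggaactgccgcggcc
The EIF4B window lies at chr12:53006446-53006470 and the EIF2S3 window at chrX:24054946-24054970, both on the plus strand. The EIF2D window lies at chr1:206612451-206612475 on the minus strand. The runs are 5 bases long in EIF4B and 7 in EIF2S3, EIF2D, EEF2 and EEF1A1, whereas EIF5, EIF6 and EIF5A2 have none at this start.

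A TOP-type start was counted where the first base was C and at least 4 more C or T followed. RefSeq promoters were matched for 50 of the 63 genes, and 12 of them (24%) had such a start, against 5.06% of the 11968 protein-coding genes tested that had a promoter and 4.07% of all 35116 promoters. The 12 were EIF4B, EIF2S3, EIF2S3B, EIF2D, EIF2A, EIF4A2, EIF3D, EIF3F, EIF3K, EIF3M, EEF1A1 and EEF2. Their median log2 fold change was 0.17, with 11 above 0, and that of the other 38 was 0.07, with 22 above 0. The median level also differed, at 3795 normalised counts for the 12 and 982 for the 38. Over protein-coding genes that averaged 50 or more, the median log2 fold change was 0.03 for 515 genes with this start and 0.01 for 8721 without. The part of level in the difference was not tested, and a match to letters at an annotated start is a description of those letters.

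**Figure D2:**
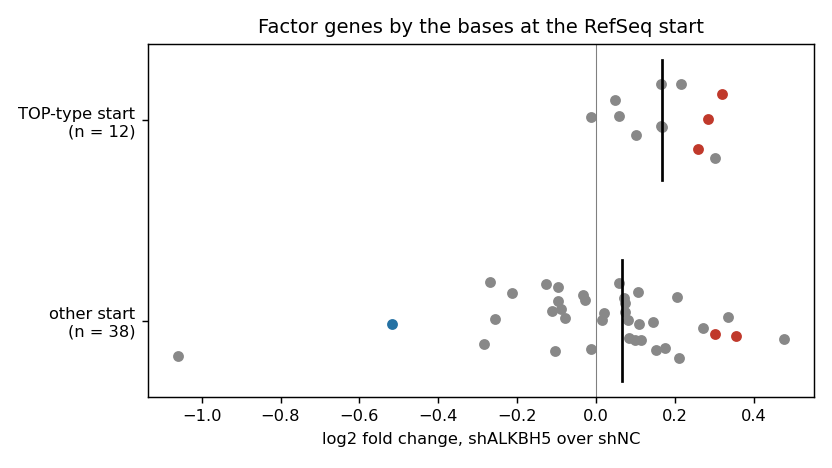
Log2 fold change, shALKBH5 over shNC, of the 50 factor genes with a matched RefSeq promoter, split by TOP-type start (above) and other start (below); each point is a gene, spread vertically so that points do not hide each other, and black lines are medians. Red points passed as higher and the blue point as lower, and the medians are 0.17 and 0.07.

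Other letters were searched in the same promoters, from 250 bases before to 50 after the start, on both strands. The E-box CACGTG, the core bound by MYC and USF proteins, occurred in 13 of the 50 factor promoters (26%), against 9.66% of the tested protein-coding genes. The ETS-type letters CCGGAAG occurred in 13 (26%), against 16.8%. The GC box GGGCGG occurred in 37 (74%), against 66.7%, and the CRE letters TGACGTCA in 1, that of EEF2, against 2.89%.

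Of the genes for start codon selection, EIF5 rose while both eIF1 genes lay lower without passing. EIF5 (ENSG00000100664, chr14:103333544-103345025, plus strand, GRCh38) encodes the GTPase-activating protein of eIF2. It had 4092 and 4031 normalised counts in shALKBH5, against 3214 and 3381 in shNC. The groups did not overlap. The log2 fold change was 0.30 ± 0.04 (SE, n = 2 per group), with an adjusted p of 0.0266 by limma-trend. EIF1, which keeps the scanning complex open until it meets a start codon, had 6650 and 6734 in shALKBH5 and 6978 and 7324 in shNC, a log2 fold change of -0.10 that did not pass. EIF1B, a close homologue of EIF1, had 474.2 and 461.4 in shALKBH5 and 552.6 and 574.2 in shNC, a log2 fold change of -0.27 with an adjusted p of 0.0859 by limma-trend and of 0.0240 in edgeR. EIF1B therefore passed in edgeR and not in limma-trend. Scaled by gene length, EIF1B made up 11.9% and 11.5% of the summed EIF1 and EIF1B level in shALKBH5, against 13.1% and 12.9% in shNC. EIF1AX, which encodes eIF1A, had a log2 fold change of 0.07 and did not pass.

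Of the eIF2 subunits, the gamma subunit gene rose and the other 2 chief subunit genes did not pass. EIF2S3 (ENSG00000130741, chrX:24054716-24077971, plus strand) encodes the gamma subunit, which binds GTP and the initiator tRNA. It had 4669 and 4785 normalised counts in shALKBH5, against 3903 and 3996 in shNC, with a log2 fold change of 0.26 ± 0.03 and an adjusted p of 0.0275 by limma-trend. EIF2S1, the alpha subunit that stress kinases phosphorylate, had 2212 and 2304 in shALKBH5 and 2505 and 2431 in shNC. Its libraries were separated in the opposite direction to those of EIF2S3, with a log2 fold change of -0.13 and an adjusted p of 0.165 by limma-trend. EIF2S2, the beta subunit, differed by 0.01. EIF2S3B, a copy of EIF2S3 on chromosome 12 that shares much of its sequence, had 67.9 and 109.1 in shALKBH5 and 74.2 and 65.4 in shNC, and its division of reads from EIF2S3 is uncertain. Per kilobase of gene length, EIF2S3 averaged 1362 normalised reads in shALKBH5 and 1137 in shNC, the highest level of the eIF2 genes.

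The eIF2B complex recharges eIF2 with GTP, and phosphorylated eIF2 inhibits it. Of its 5 genes 0 passed in limma-trend, edgeR or the authors' deposited table, and 0 had an unadjusted p under 0.05 in limma-trend. The median log2 fold change was -0.08. EIF2B1, EIF2B2 and EIF2B5 had both shALKBH5 libraries below both shNC libraries, and EIF2B4 had them above. Such separation was common, downward for 6624 and upward for 6484 of the 25887 genes tested. Of 11577 protein-coding genes that averaged 50 or more, it was downward for 3633 and upward for 3832. EIF2B5, the catalytic subunit, had 1206 and 1258 in shALKBH5, against 1315 and 1288 in shNC, a log2 fold change of -0.08 with an adjusted p of 0.395 by limma-trend.

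Of the proteins that can place an initiator tRNA without the usual eIF2 route, EIF2D rose. EIF2D (ENSG00000143486, chr1:206571292-206612463, minus strand), which also acts in ribosome recycling, had 1153 and 1128 normalised counts in shALKBH5, against 915.0 and 913.4 in shNC. The 2 groups were far apart relative to the gap within each, with a log2 fold change of 0.32 ± 0.05 and an adjusted p of 0.0340 by limma-trend. EIF2A had 1853 and 1917 in shALKBH5 and 1996 and 1810 in shNC, where the groups overlapped.

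**Figure D3:**
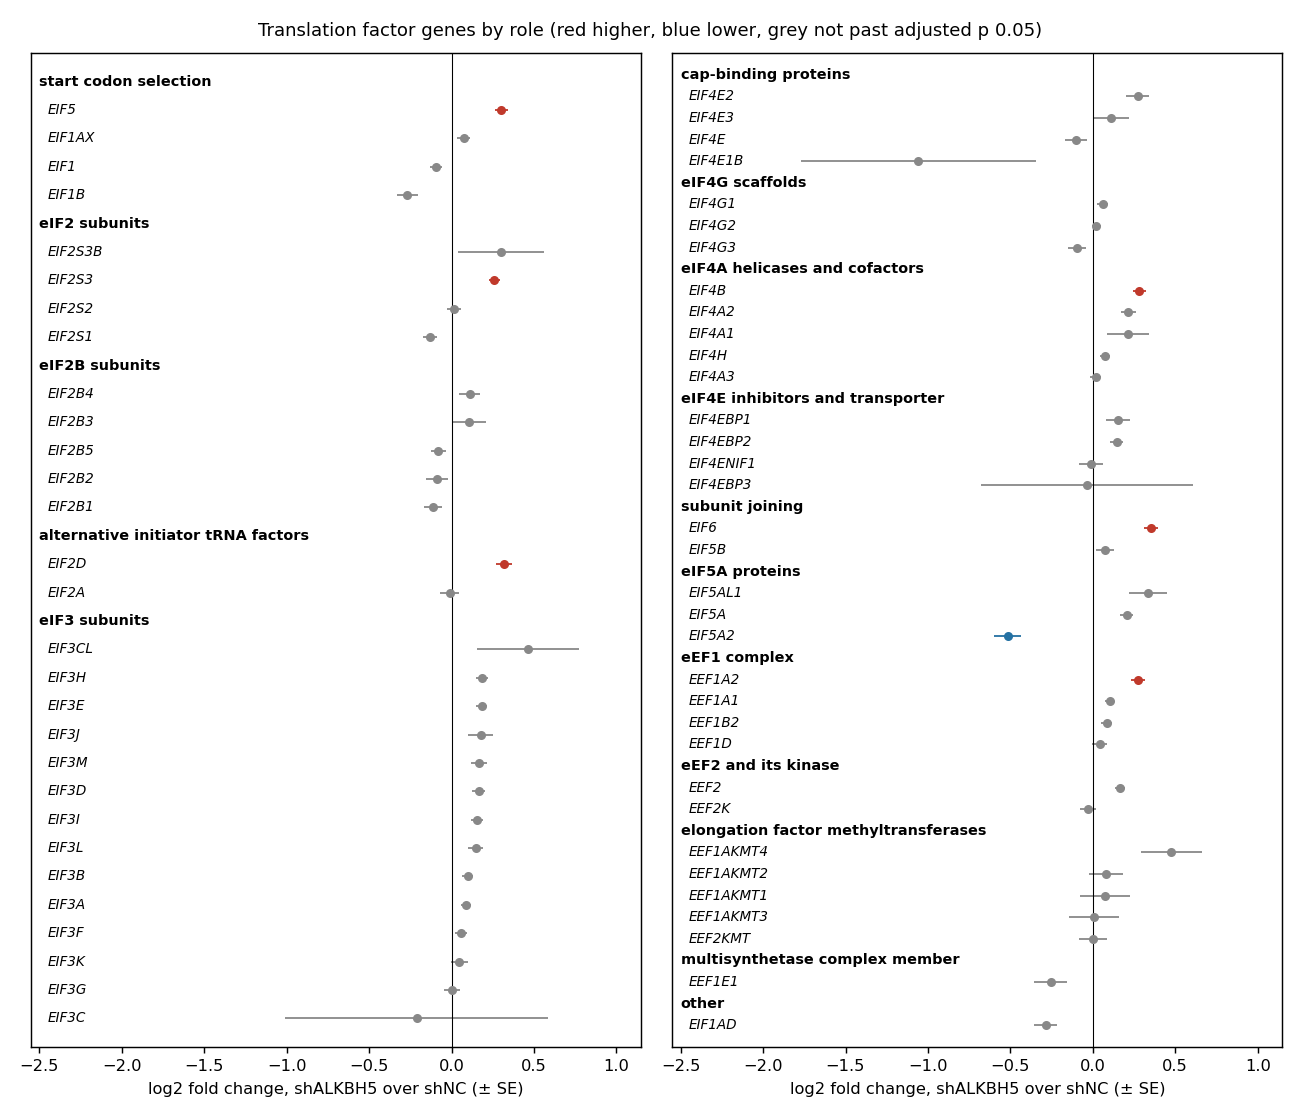
Log2 fold change, shALKBH5 over shNC, of the 63 factor genes by role, with SE from limma-trend as horizontal bars (n = 2 per group). The 6 genes past the threshold as higher are red and lie between 0.26 and 0.36, EIF5A2 is blue at -0.52, and the widest bars belong to EIF3C, EIF4E1B and EIF4EBP3.

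eIF3 is the largest initiation factor, a scaffold of many subunits on the small ribosomal subunit. Of its 14 genes 0 passed in limma-trend, and 8 had an unadjusted p under 0.05. That unadjusted p was reached by 21.4% of all genes and 45.2% of the protein-coding genes that averaged 1000 or more. In edgeR 6 passed as higher and 0 as lower. In either direction edgeR passed 20.8% of all genes it tested and 36.4% of the protein-coding genes that averaged 1000 or more. Of the 14, 13 had a log2 fold change above 0, with a median of 0.15, and 12 were above 0 with the libraries scaled to equal totals. Above 0 lay 49.1% of all genes tested and 57.4% of the protein-coding genes that averaged 1000 or more. With equal totals, 11630 of 25887 and 1869 of 3858 of these were above 0. For 10 of the 14 eIF3 genes both shALKBH5 libraries lay above both shNC libraries. That held for 25.0% of all genes and 41.0% of the protein-coding genes that averaged 1000 or more. EIF3E, a subunit that contacts the cap-binding complex, was nearest to the threshold. It had 8035 and 8047 normalised counts in shALKBH5, against 7228 and 6943 in shNC, a log2 fold change of 0.18 ± 0.03 with an adjusted p of 0.0521 by limma-trend. EIF3H had a log2 fold change of 0.19, EIF3D of 0.16 and EIF3I of 0.15, and these passed in edgeR as EIF3E did. The large scaffold subunits EIF3A and EIF3B had 0.09 and 0.10. EIF3G and EIF3K, at 0.00 and 0.05, had overlapping groups.

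Levels of the eIF3 genes per kilobase of gene length differed widely. EIF3I was highest, at 2863 normalised reads per kilobase in shALKBH5 and 2575 in shNC, followed by EIF3A, EIF3D, EIF3E, EIF3B, EIF3K, EIF3L, EIF3H, EIF3G, EIF3M, EIF3F and EIF3J. EIF3J, a loosely bound subunit, was lowest of these at 278 in shALKBH5 and 246 in shNC. The library ranges of EIF3A and EIF3D overlapped, as did those of each neighbour in the run EIF3B, EIF3K, EIF3L and EIF3H, and those of EIF3M and EIF3F. Gene length here is that of all exons in the annotation, so a gene with long rarely used exons reads as lower.

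EIF3C did not behave as the other subunits did within the groups. It had 455.0 and 968.8 normalised counts in shALKBH5, against 1769 and 334.1 in shNC. Each group held 1 high and 1 low library, and the SE of the log2 fold change, 0.80, exceeded its size of -0.21. EIF3CL, a nearly identical gene on the same chromosome, had 78.0 and 83.1 in shALKBH5 and 42.8 and 78.7 in shNC. The 2 genes summed to 533.0 and 1052 in shALKBH5 and 1812 and 412.8 in shNC, and the sum was spread within the groups as EIF3C was. The cause was not tested.

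**Figure D4:**
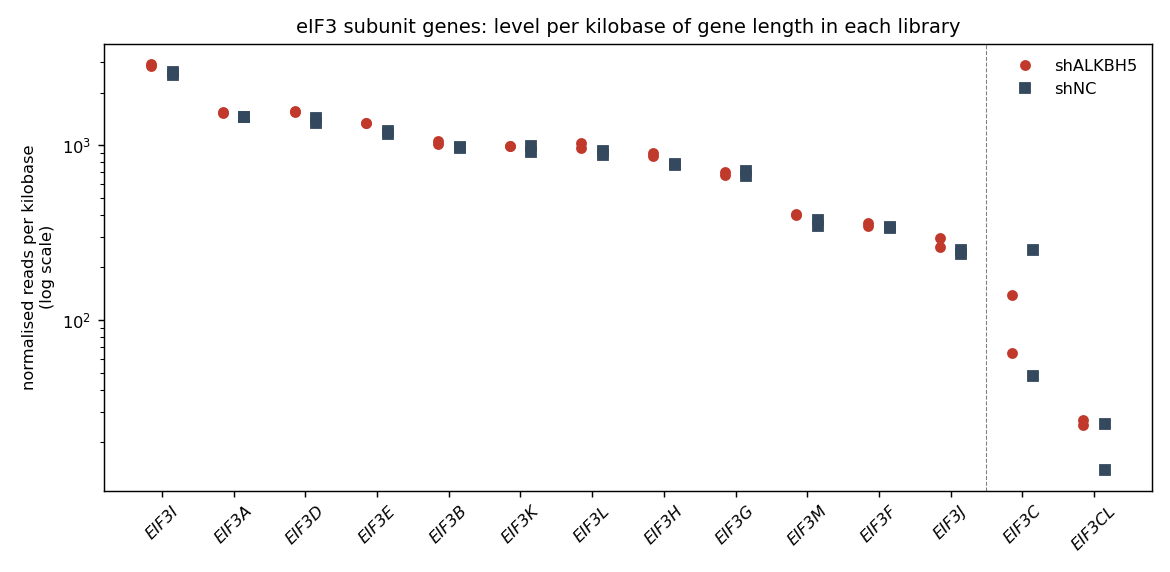
Level of the eIF3 subunit genes in normalised reads per kilobase of gene length, on a log axis, with 1 point per library (circles shALKBH5, squares shNC). The 12 genes left of the dashed line have tight groups between 239 and 2900, while EIF3C is spread over both groups, with shALKBH5 points at 65.2 and 138.8 and shNC points at 253.4 and 47.9.

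At the cap, the gene for the main cap-binding protein did not pass. EIF4E had 1322 and 1412 normalised counts in shALKBH5 and 1538 and 1400 in shNC, with overlapping groups, a log2 fold change of -0.10 and an adjusted p of 0.428 by limma-trend. EIF4E2, a homologue that represses translation, had 990.0 and 1025 in shALKBH5 and 886.5 and 785.7 in shNC, a log2 fold change of 0.27 with an adjusted p of 0.114 by limma-trend and of 0.0124 in edgeR. EIF4E1B was near the limit of detection, with 2.03 and 9.01 in shALKBH5 and 13.3 and 8.17 in shNC. The scaffold gene EIF4G1, which links eIF4E to eIF4A and eIF3, had 12733 and 12148 in shALKBH5, against 11982 and 11902 in shNC, a log2 fold change of 0.06 that did not pass. EIF4G2 and EIF4G3 had 0.02 and -0.10, and 0 of the 3 scaffold genes passed in limma-trend or edgeR, with 0 at an unadjusted p under 0.05 in limma-trend.

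Of the helicases and their cofactors, EIF4B rose. EIF4B (ENSG00000063046, chr12:53006158-53042209, plus strand) stimulates the eIF4A helicase. It had 14795 and 15305 normalised counts in shALKBH5, against 12768 and 11983 in shNC, a log2 fold change of 0.28 ± 0.04 with an adjusted p of 0.0324 by limma-trend. With the libraries scaled to equal totals, EIF4B no longer passed. An antisense gene, AC068888.1, covers 11.9% of its exon bases at 90.2 and 103.1 counts in shALKBH5 and 116.0 and 102.2 in shNC, and the strand setting of the counting is not known here. All 5 genes of this set were above 0 with the deposited scaling, and 4 with equal totals. With the deposited scaling, so were 49.1% of all genes and 57.4% of the protein-coding genes that averaged 1000 or more. EIF4A2, a helicase of the cap-binding complex, had 6615 and 6791 in shALKBH5 and 5981 and 5568 in shNC, a log2 fold change of 0.22 with an adjusted p of 0.0664 by limma-trend and of 0.00126 in edgeR.

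EIF4A1, the paralogue of EIF4A2, was listed low. It had 168.2 and 197.2 normalised counts in shALKBH5 and 164.5 and 150.2 in shNC, and its adjusted p was 0.405 in limma-trend. Scaled by gene length, EIF4A2 made up 97.2% and 96.8% of the summed level of both in shALKBH5 and 96.9% and 97.0% in shNC. On the same strand, AC016876.2, a processed transcript that was not analysed here, overlaps 41.1% of the exon bases of EIF4A1, and the readthrough gene SENP3-EIF4A1 overlaps 29.8%. Whether reads that overlap 2 genes were left uncounted was not tested, so the level of EIF4A1 is uncertain.

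The inhibitors that bind eIF4E when mTORC1 is inactive did not pass. EIF4EBP1 had 1944 and 1684 normalised counts in shALKBH5, against 1640 and 1614 in shNC, with an adjusted p of 0.303 by limma-trend. EIF4EBP2 had 2117 and 2176 in shALKBH5 and 1961 and 1923 in shNC, with an adjusted p of 0.123 by limma-trend and of 0.0459 in edgeR. Scaled by gene length, EIF4EBP1 made up 85.5% and 83.6% of the 3 inhibitors in shALKBH5 and 84.7% and 84.2% in shNC. EIF4EBP3 had at most 12.3 counts in any library, and 73.4% of its exon bases are shared with the readthrough gene ANKHD1-EIF4EBP3. EIF4ENIF1, which carries eIF4E into the nucleus, had a log2 fold change of -0.01.

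EIF6, which holds the large ribosomal subunit apart from the small one until it is mature, had the smallest adjusted p of the 63 genes. EIF6 (ENSG00000242372, chr20:35278911-35284985, minus strand) had 2030 and 1975 normalised counts in shALKBH5, against 1544 and 1586 in shNC. The means were 2002 ± 38.9 in shALKBH5 and 1565 ± 29.7 in shNC (SD, n = 2 each), a log2 fold change of 0.36 ± 0.04 with an adjusted p of 0.0217 by limma-trend. The gene AL121753.1 shares 17.4% of its exon bases and had at most 8.11 counts in any library. EIF5B, the GTPase of subunit joining, had 2819 and 2713 in shALKBH5 and 2754 and 2514 in shNC, where the groups overlapped.

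EIF5A2 was the 1 factor gene that passed as lower. The eIF5A proteins carry hypusine, an amino acid formed on them alone. EIF5A2 (ENSG00000163577, chr3:170888415-170908693, minus strand) had 315.1 and 349.3 normalised counts in shALKBH5, against 487.9 and 462.8 in shNC, a log2 fold change of -0.52 ± 0.08 with an adjusted p of 0.0403 by limma-trend. EIF5A, the widely expressed paralogue, had 16426 and 15556 in shALKBH5, against 13634 and 14114 in shNC. Its groups were separated upward, with a log2 fold change of 0.20 and an adjusted p of 0.0546 by limma-trend and of 0.000706 in edgeR. Scaled by gene length, EIF5A2 made up 0.956% and 1.12% of the summed level in shALKBH5, against 1.77% and 1.62% in shNC. The difference between the paralogues' fold changes was not tested. EIF5AL1, a gene that closely resembles EIF5A and may share its reads, had 364.8 and 303.3 in shALKBH5 and 255.9 and 271.8 in shNC, a log2 fold change of 0.33 with an adjusted p of 0.174 by limma-trend.

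Of the elongation factors, EEF1A2 passed and the more abundant EEF1A1 and EEF2 did not. EEF1A2 (ENSG00000101210, chr20:63488012-63499322, minus strand), the eEF1A form of muscle and neurons, had 10923 and 10221 normalised counts in shALKBH5, against 8618 and 8883 in shNC, a log2 fold change of 0.27 ± 0.04 with an adjusted p of 0.0374 by limma-trend. EEF1A1 had 159797 and 163179 in shALKBH5, against 152413 and 148642 in shNC, a log2 fold change of 0.10 with an adjusted p of 0.105 by limma-trend and of 0.0223 in edgeR. Both genes had separated groups. Scaled by gene length, EEF1A2 made up 7.65% and 7.05% of the eEF1A level in shALKBH5, against 6.41% and 6.75% in shNC. EEF1A1 was the highest factor gene per kilobase, at 27150 normalised reads in shALKBH5 and 25307 in shNC, with EEF2 next at 20496 in shALKBH5 and 18281 in shNC. The exchange factor genes EEF1B2 and EEF1D had log2 fold changes of 0.08 and 0.04 and did not pass. EEF1G, whose name also starts with EEF1, was not among the factor genes analysed, so its level is not described.

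EEF2 had 83340 and 81736 normalised counts in shALKBH5, against 71889 and 75342 in shNC. The groups did not overlap, and the log2 fold change was 0.17 ± 0.03 with an adjusted p of 0.0580 by limma-trend and of 0.00118 in edgeR. EEF2K, the kinase that phosphorylates and inhibits eEF2, had 1016 and 1048 in shALKBH5 and 1040 and 1067 in shNC, with a log2 fold change of -0.03. Of the 5 genes for methyltransferases of elongation factors 0 passed in limma-trend or edgeR, with 1 at an unadjusted p under 0.05 in limma-trend. The largest of their log2 fold changes was that of EEF1AKMT4, 0.48, with 158.1 and 116.1 in shALKBH5 and 92.3 and 102.2 in shNC. On the opposite strand, CAMK2N2 covers 20.5% of its exon bases, and the strand setting of the counting is not known here. CAMK2N2 had 81.06 and 93.08 counts in shALKBH5 and 51.36 and 77.65 in shNC. The readthrough gene EEF1AKMT4-ECE2 shares 26.3% of the exon bases of EEF1AKMT4. EEF1E1, a protein of the multisynthetase complex that has an elongation factor's name, had a log2 fold change of -0.25, and EIF1AD, named for its eIF1A domain, had -0.28, of which EIF1AD passed in edgeR with an adjusted p of 0.0115.

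Beyond the factors themselves, 61 genes that regulate or modify them were examined. Of these, 8 were higher, 2 were lower and 51 did not pass in limma-trend, where 3.86% of all genes passed. Their median level was 1085 normalised counts, and 8.31% of the protein-coding genes that averaged 50 or more passed, against the 13.7% given above for 1000 or more. With the libraries scaled to equal totals 4 were higher, where 323 of the 25887 genes tested were higher. Without shNC library 1 or 2, 0 passed in limma-trend. The list holds the eIF2 kinases, partners of the cap complex, mTORC1 and its regulators, factor-modifying enzymes, termination factors and mitochondrial factors.

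Among cap-complex partners, MKNK2, a kinase that phosphorylates eIF4E, had 4987 and 4937 normalised counts in shALKBH5, against 3452 and 3564 in shNC. Its log2 fold change was 0.50 ± 0.03, with an adjusted p of 0.00547 by limma-trend. The poly(A)-binding protein gene PABPC1 had 37846 and 37923 in shALKBH5, against 34133 and 34163 in shNC, a log2 fold change of 0.15 with an adjusted p of 0.0397 by limma-trend. Its homologue PABPC4 rose by 0.23. Among factor-modifying enzymes, DPH2 and DPH5, which act in diphthamide synthesis on eEF2, rose by 0.42 and 0.47, and METTL13, a methyltransferase of eEF1A, rose by 0.42. DHPS, the first enzyme of hypusine synthesis, and DPH6, a diphthamide synthetase, had log2 fold changes of -0.38 and -0.46 and did not pass in limma-trend, while DPH6 passed in edgeR with an adjusted p of 0.0325.

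Of the mTORC1 genes, inhibitors of the pathway were on both sides. DDIT4, which acts through the TSC complex, had 1853 and 1965 normalised counts in shALKBH5, against 5357 and 5782 in shNC. TSC2, the GTPase-activating subunit of that complex, had 1274 and 1289 in shALKBH5 and 1521 and 1501 in shNC, a log2 fold change of -0.24 with an adjusted p of 0.0492 by limma-trend. The sestrin gene SESN1 rose by 0.53, with 350.6 and 356.3 in shALKBH5 and 229.2 and 260.5 in shNC, and AKT1S1, an mTORC1 inhibitor that AKT phosphorylates, rose by 0.51. Another sestrin gene, SESN3, had 258.4 and 226.2 in shALKBH5, against 445.1 and 357.6 in shNC. Its log2 fold change was -0.72, and its adjusted p was 0.0538 by limma-trend and 0.000156 in edgeR. TSC1, the partner of TSC2, had -0.27, with an adjusted p of 0.0750 by limma-trend and of 0.0104 in edgeR. MTOR itself had a log2 fold change of -0.00. The S6 kinase gene RPS6KB1 had 1202 and 1289 in shALKBH5, against 1484 and 1449 in shNC. Its log2 fold change was -0.24, and its adjusted p was 0.0785 by limma-trend and 0.00630 in edgeR. Of the 7 genes of eIF2 phosphorylation and its response 0 passed in limma-trend, edgeR or the authors' deposited table, and 0 had an unadjusted p under 0.05 in limma-trend. ATF4, whose translation rises when eIF2 is phosphorylated, had 5459 and 5554 in shALKBH5 and 5733 and 5991 in shNC, and PPP1R15A, a subunit of the eIF2 phosphatase, had 648.5 and 642.5 in shALKBH5 and 673.4 and 672.3 in shNC.

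**Figure D5:**
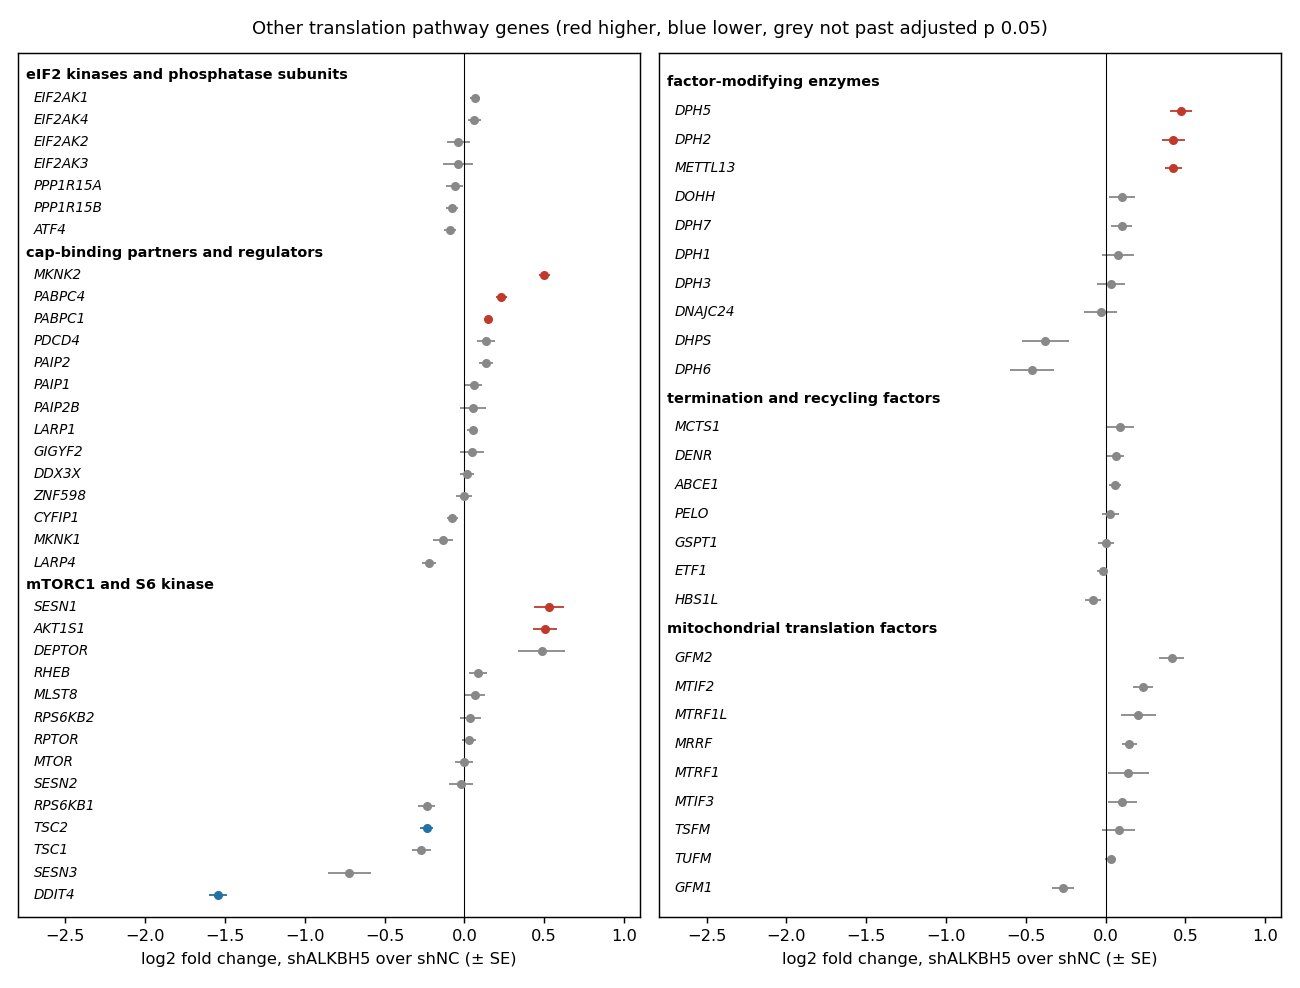
Log2 fold change, shALKBH5 over shNC, of 61 other genes of the translation pathway by list, with SE from limma-trend as horizontal bars (n = 2 per group). The 8 genes past the threshold as higher are red and reach 0.53, and the 2 lower genes, DDIT4 at -1.54 and TSC2 at -0.24, are blue.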

How the data were processed

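RNA was sequenced from 4 HCT116 libraries, made with a kit for mRNA, per the labels' protocols. The sources used here give no aligner, counter, build or strand setting. Gene positions of all 63 factor genes matched GENCODE 29 on GRCh38. The deposited per-library values are a signal, read counts divided by a library size factor. Per the file headers, the deposited table also holds the authors' log2 fold change, p-value and adjusted p, and gene length. All values (100% within 0.001 reads) were whole multiples of 1 step per library, which gave the recovered reads. In shALKBH5 library 2 the step was 1.00084, so near 1 that small values hardly differ from unscaled counts, and it was treated like the others. The spread within a group exceeded sampling noise (mean chi-square over genes 2.21 in shALKBH5 and 2.85 in shNC), so each library was counted as 1 sample.

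Values were analysed as log2(value + 1) with limma 3.58.1 (trend, prior of 3.48 degrees of freedom) over genes that reached 1 in 2 or more libraries. The scale understates changes of low genes. edgeR 4.0.16 and DESeq2 1.42.0 ran on the recovered reads, under R 4.3.3. Intervals of counting error were not used. The code was tested on simulated data. The factor genes, roles and pathway lists were chosen with earlier results of these data known. Library values were printed for factor genes past the threshold, for a list of central factors whatever their values, and for the 8 largest changes with a mean of at least 50. The lowest and highest gene of each role by reads per kilobase were also eligible, and values of other genes named were chosen after they were seen. Motifs and start bases were also chosen after the data were seen, and sequences come from RefSeq. Alternatives were other pseudocounts, filters, scalings, tools, a replicate block and leaving out each library. A listed marker of other cells is not reported here.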

Additional observations from a re-analysis of the deposited data

How the results depend on the processing

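The calls depended on how the spread was estimated. Restricted to genes averaging 50 or more, 19 factor genes were higher and 3 lower, and 8 other pathway genes were lower. Of the 12540 genes tested there, 1789 were higher and 1698 lower. edgeR on recovered reads gave 19 and 3 for factor genes and 8 lower pathway genes, and DESeq2 gave 14 higher factor genes. Over all genes edgeR gave 1712 higher and 1716 lower of 16473, and DESeq2 gave 793 higher and 691 lower of 28391. Without the mean-variance trend 0 genes of either set passed in limma, and 0 of all 25887 genes tested passed. In that fit 7 factor genes had an unadjusted p under 0.05 in limma. So did 15.1% of all genes and 11.8% of the protein-coding genes that averaged 1000 or more. edgeR on recovered reads, a separate fit, called 22 factor genes. Equal totals left 4 higher pathway genes, where 323 of 25887 genes were higher. A pseudocount of 0.5, or no filter on low values, left 1 lower pathway gene. Over all genes 414 of 25887 and 384 of 28391 were lower in these 2 settings. With the replicate block, limma passed 0 factor genes in either direction and 1 pathway gene in each direction. In that fit 22 factor genes had an unadjusted p under 0.05 in limma. So did 18.9% of all genes and 39.0% of the protein-coding genes that averaged 1000 or more. edgeR with the block gave 17 higher and 3 lower factor genes and 8 lower pathway genes. Over all genes the block gave 56 higher and 55 lower of 25887 in limma. In edgeR it gave 1623 higher and 1650 lower of 16473. Same-numbered libraries did not deviate together over genes (r = -0.0275 over 12540 genes). With 2 libraries per group, that value cannot show whether same-numbered libraries were prepared together. Leaving out 1 library gave 0 to 18 higher and 0 to 4 lower factor genes, and 0 to 10 higher and 0 to 8 lower pathway genes, over limma and edgeR, of which 6 lower pathway genes in each tool without shALKBH5 library 2. Over all genes, calls in limma and in edgeR also varied with the library left out. Such counts, here and below, therefore do not set the factor or pathway genes apart from other genes. Without either shALKBH5 library limma's prior was unbounded, so each gene's own spread was ignored. EIF3C reversed to a log2 fold change of 0.33 without shALKBH5 library 1. Its limma range over left-out libraries was -1.41 to 0.99. In edgeR it reversed to 1.09 without shNC library 1. The edgeR filter, and filtering again after a library was left out, were adopted after other counts had been seen. edgeR on the genes of the limma filter gave 11 higher factor genes and 5 lower pathway genes. Over all 25887 genes it gave 887 higher and 804 lower. With the original genes kept, limma had 13 to 19 factor genes at an unadjusted p under 0.05 when 1 library was left out (14.7% to 16.5% of all genes). Higher factor genes numbered 15 in limma without shALKBH5 library 1, and 15 in edgeR on the original genes without shALKBH5 library 2.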

Other observations

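Among genes outside the rule, 49 pseudogenes carry a factor name, of which 42 were tested and 0 passed in limma-trend. They summed to 4453 and 4584 normalised counts in shALKBH5 and 3679 and 4054 in shNC. The 15 EEF1A1 pseudogenes took 2341 and 2441 of these in shALKBH5 and 1711 and 2054 in shNC, and reads of the parent gene that align to them cannot be told apart from their own.

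For each gene the transcript with the longest coding sequence was taken, and in a tie the shortest of these. Such a transcript can lack most bases outside the coding sequence, as for EIF4G2, with 2724 bases of which 2721 are coding. The transcripts so chosen for the 63 factor genes had a median length of 2041 bases, against 2873 for protein-coding genes that averaged 50 or more. The letters GGACT, one form of the sequence in which N6-methyladenosine is placed, occurred 1.06 times per kilobase in the factor transcripts (median) and 0.964 times in those genes. In the 7 factor genes past the threshold the median was 0.894 per kilobase.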
